A study of Mus musculus with 3 samples.

Results

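The genes of the major histocompatibility complex (MHC) and those that load its molecules with antigen were described here in macrophages sorted from mouse kidneys. Members were the rows of the deposited table whose symbol starts with H2-, together with B2m, Cd74, Ciita, Nlrc5, Tap1, Tap2, Tapbp, Tapbpl, Erap1, Cd1d1 and Mr1. This rule uses names only and gave 36 of 14811 listed genes. The data were 3 RNA-seq libraries, 1 from each of 3 C57BL6/J mice, and all 3 formed a single group. Each mouse had been given PBS into a vein, and its kidneys were taken 1 h later, digested with enzymes, and the macrophages sorted by flow cytometry (FACS). The markers of the sort and the age and sex of the mice are not stated in the labels, and no untreated mice or other cell types were analysed here. The values are therefore levels, ratios within a library and differences between mice, with no comparison between conditions. Values are normalised read counts, meaning reads per gene divided by a factor for each library, and the ± after a mean is the SD over n = 3 mice.

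MHC class II molecules show peptides from endocytosed material to CD4 T cells, and are made of an alpha and a beta chain that assemble on the invariant chain, encoded by Cd74. In the endosome the invariant chain is cut down to a fragment, which the DM molecule exchanges for other peptides while the DO molecule restrains DM. MHC class I molecules show peptides from the cytosol to CD8 T cells. Their heavy chain pairs with beta-2-microglobulin and receives peptides that the TAP transporter brings into the endoplasmic reticulum. Tissue macrophages such as those of the kidney are known for carrying class II molecules at rest.

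By their roles the 36 members fell into 4 class II chains, 6 class II loading genes, 2 classical class I heavy chains, 6 class I loading genes and 13 nonclassical class I genes of the Q, T, M and K regions. The others were the 2 class I-like genes Cd1d1 and Mr1, which lie outside the locus, and the 2 regulators Ciita and Nlrc5. The last was H2-Ke6, which carries the H2- prefix but encodes a steroid dehydrogenase (Hsd17b8) and no MHC molecule.

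The promoters of class II genes are known to share an X box, bound by the RFX complex, an adjoining X2 box, bound by CREB family factors, and a Y box, bound by NF-Y, and Ciita and Nlrc5 act through the proteins bound there. RefSeq promoter windows, from 250 bases before to 50 after the gene's start on the build GRCm38.p6, matched 24 of the 36 members by symbol. The 6 windows below show these boxes in 2 abundant class II chains, a class II chain with reads in 1 mouse alone, a DM chain, a classical class I heavy chain and the class I light chain. Capitals mark the shortened X box cores GCAAC and GTAAC, the X2 core TGACG and the Y box read as ATTGG, each on the printed strand, which runs 5′ to 3′ along the gene. The windows are chr17:34287774-34288073, strand minus for H2-Aa, chr17:34305617-34305916, strand plus for H2-Eb1, chr17:34325425-34325724, strand plus for H2-Eb2, chr17:34152941-34153240, strand plus for H2-DMb1, chr17:34000298-34000597, strand minus for H2-K1 and chr2:122147437-122147736, strand plus for B2m.
H2-Aa: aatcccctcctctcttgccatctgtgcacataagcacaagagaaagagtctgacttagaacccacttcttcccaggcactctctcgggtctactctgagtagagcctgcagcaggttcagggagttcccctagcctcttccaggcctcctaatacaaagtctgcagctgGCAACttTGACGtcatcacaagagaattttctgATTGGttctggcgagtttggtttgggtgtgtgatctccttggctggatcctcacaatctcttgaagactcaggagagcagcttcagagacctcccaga
H2-Eb1: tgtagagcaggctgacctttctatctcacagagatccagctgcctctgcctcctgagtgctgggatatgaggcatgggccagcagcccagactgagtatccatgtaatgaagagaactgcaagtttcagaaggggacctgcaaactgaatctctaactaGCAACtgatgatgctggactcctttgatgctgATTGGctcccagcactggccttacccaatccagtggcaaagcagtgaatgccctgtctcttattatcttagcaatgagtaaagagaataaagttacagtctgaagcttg
H2-Eb2: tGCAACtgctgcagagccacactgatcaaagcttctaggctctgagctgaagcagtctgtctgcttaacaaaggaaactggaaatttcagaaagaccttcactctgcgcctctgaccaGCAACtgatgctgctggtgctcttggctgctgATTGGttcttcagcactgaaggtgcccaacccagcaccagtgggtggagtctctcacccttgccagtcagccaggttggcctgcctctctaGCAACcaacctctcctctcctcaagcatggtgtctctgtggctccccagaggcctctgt
H2-DMb1: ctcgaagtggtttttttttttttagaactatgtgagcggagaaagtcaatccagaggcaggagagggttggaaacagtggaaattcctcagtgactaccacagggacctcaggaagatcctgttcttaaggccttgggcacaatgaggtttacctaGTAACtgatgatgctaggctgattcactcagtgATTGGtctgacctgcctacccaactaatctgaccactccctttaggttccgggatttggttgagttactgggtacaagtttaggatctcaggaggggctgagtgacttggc
H2-K1: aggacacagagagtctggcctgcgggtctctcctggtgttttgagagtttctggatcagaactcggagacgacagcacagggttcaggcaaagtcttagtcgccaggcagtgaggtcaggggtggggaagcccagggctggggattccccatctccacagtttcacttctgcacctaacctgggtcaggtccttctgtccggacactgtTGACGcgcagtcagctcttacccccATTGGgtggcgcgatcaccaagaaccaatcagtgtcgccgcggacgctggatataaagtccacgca
B2m: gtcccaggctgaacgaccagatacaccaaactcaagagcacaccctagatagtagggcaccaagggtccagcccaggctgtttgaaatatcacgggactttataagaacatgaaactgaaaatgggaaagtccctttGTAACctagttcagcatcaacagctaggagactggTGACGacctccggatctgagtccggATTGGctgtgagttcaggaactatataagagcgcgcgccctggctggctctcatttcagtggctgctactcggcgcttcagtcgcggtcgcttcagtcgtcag

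In 6 of the 24 windows GCAAC or GTAAC was followed by ATTGG on the same strand with 25 to 40 bases between the starts of the motifs, against 1.15% of 27025 windows of all genes. The 6 were class II genes: H2-Aa, H2-Eb1, H2-Eb2, H2-DMb1, H2-Oa and H2-Ob. The class II genes H2-DMa and H2-DMb2 also had windows and lacked this arrangement, and H2-Ab1 had no window. Cd74 was not among the genes with this arrangement, and whether it had a window is not given here. The distance was 33 bases in H2-Aa, H2-DMb1 and H2-Oa, 32 in H2-Eb1 and H2-Eb2, and 30 in H2-Ob. TGACG followed by ATTGG at 20 to 30 bases was present in B2m, H2-K1, H2-D1, H2-M3, H2-Q7 and H2-Aa, against 0.463% of all windows. Here the distance was 25 bases in B2m, H2-K1, H2-D1 and H2-M3, 26 in H2-Aa and 24 in H2-Q7. The arrangements and their distance limits were not planned. Their letters were chosen after the sequences had been seen, so the shares beside all windows are description only.

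Single motifs were counted on both strands. The longer X box core AGCAAC was in 7 of 24 member windows, against 14.8% of all, TGACG in 10 of 24, against 21% of all, and CCAAT, the Y box read on the other strand, in 20 of 24, against 37.9% of all. The interferon-stimulated response motif, searched as GAAA, 2 bases of any kind and GAAA, was in B2m, Erap1, H2-T22 and H2-T23, against 3.49% of all windows. AGCAAC contains GCAAC, which alone was in 11 of 24 member windows, against 35.4% of all. GTAAC was in 8 of 24, against 23.4% of all. ATTGG is CCAAT on the other strand. In H2-Aa a TGACG on each strand overlapped the other by 2 bases. H2-Eb1 and H2-Eb2, whose windows hold the same X and Y arrangement, had very different levels, given below. A match is a description of letters and was not tied to binding in these cells.

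**Figure D1:**
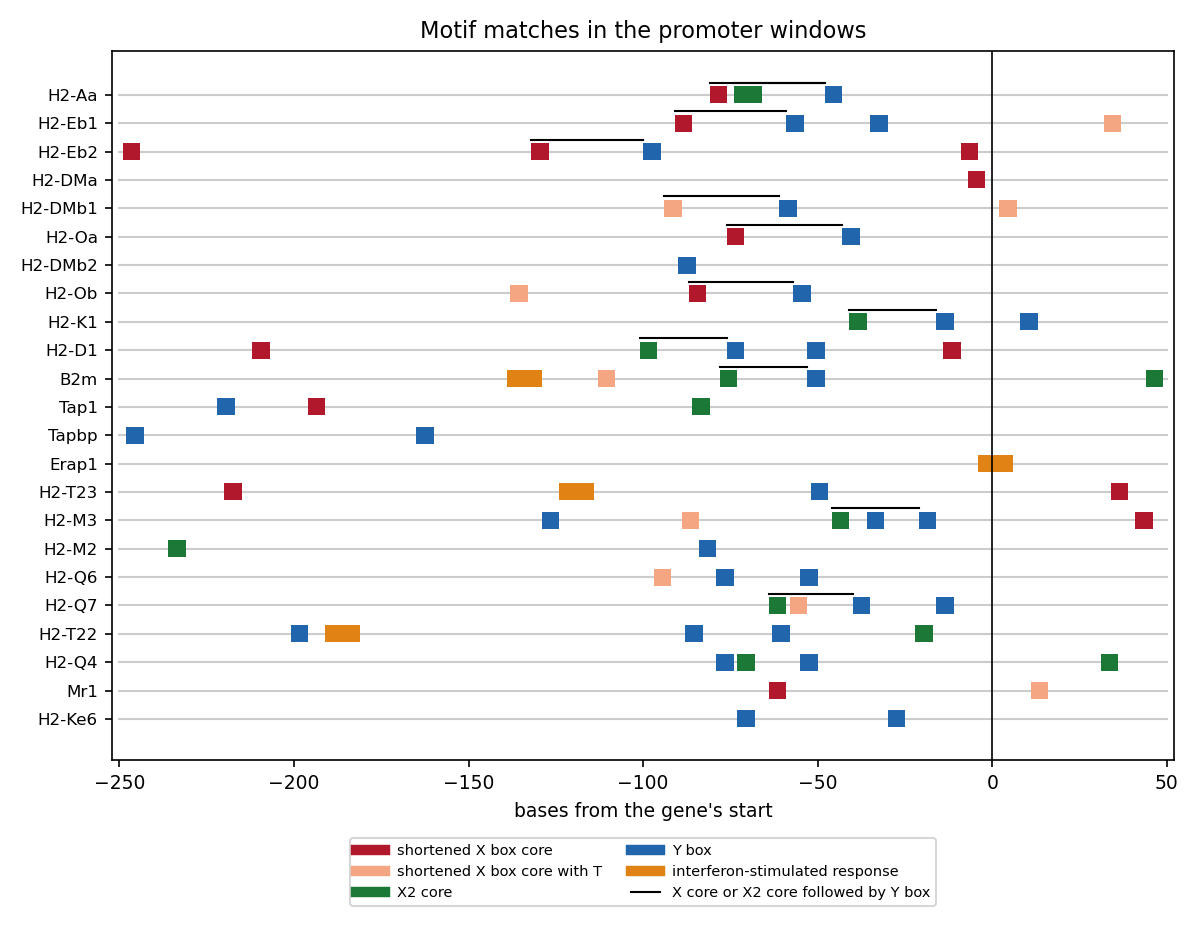
Motif matches in the promoter windows of members with at least 1 match, by distance in bases from the gene's start, on either strand. Black lines join an X box core or X2 core to the Y box that follows it, as in H2-Aa at 33 and 26 bases and in H2-K1 at 25 bases.

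Members held 13.5% ± 0.561 of the reads of all listed genes, 13.1%, 14.1% and 13.2% in mice 1, 2 and 3. Each library had 50646558 to 56718534 reads over the listed genes, and 1 read was worth 0.806, 0.555 and 0.705 normalised reads in mice 1, 2 and 3. A count of 0 therefore allows up to 2.42, 1.66 and 2.11, taking 3 reads as the limit and covering counting error only. Of the 36 members 33 were above 0 in every mouse, against 71% of all listed genes. None of the 36 was at 0 in all 3, against 6.59% of all listed genes. A level of 10 or more in every mouse was reached by 23, against 44.4% of all listed genes, and 1000 or more by 14, against 14.7%. A level of 10000 or more in every mouse was reached by 10 members, against 1.77% of all listed genes. In only 1 or 2 of the mice, 12 members reached 1000, against 27.3% of all listed genes. The median of the members' mean levels was 1314, and that of all listed genes was 254.

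The 7 macrophage markers checked were all at 1000 or more in every mouse, led by Lyz2 (117633 ± 18383). Markers of other cells that carry class II molecules were uneven. Of 6 dendritic cell markers analysed, Ccr7 and Cd209a were at 0, Flt3 was at 4.84, 0 and 0 and Zbtb46 at 0, 0 and 16.2 in mice 1, 2 and 3. Markers of the cross-presenting subset were present, with Clec9a at 3421, 1330.3 and 1462 and Xcr1 at 534, 2.77 and 407. The 6 summed to 3959.8, 1333 and 1885. The only B cell marker analysed, Cd79b, was at 227, 3939.8 and 6359. Of 3 T cell markers analysed, Cd3e was at 0 and none exceeded 4.23 in any mouse. The 4 endothelial markers, with Kdr at 453, 7.77 and 1345, Emcn at 71.8, 99.3 and 38.1 and Pecam1 at 4.84, 0.555 and 0.705, summed to 529.9, 133 and 1384. The 5 tubule markers summed to 4276, 20805 and 2112, which was highest in mouse 2. Lrp2 (1697, 8594 and 122), Slc34a1 (2399, 8606 and 915), Aqp1 and Cdh16 were each highest there. Umod was highest in mouse 3, at 40.3, 598 and 998. The part of any of these cells in the members' levels was not tested, and in sorted bulk samples more cells of a type cannot be told apart from more RNA per cell.

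**Figure D2:**
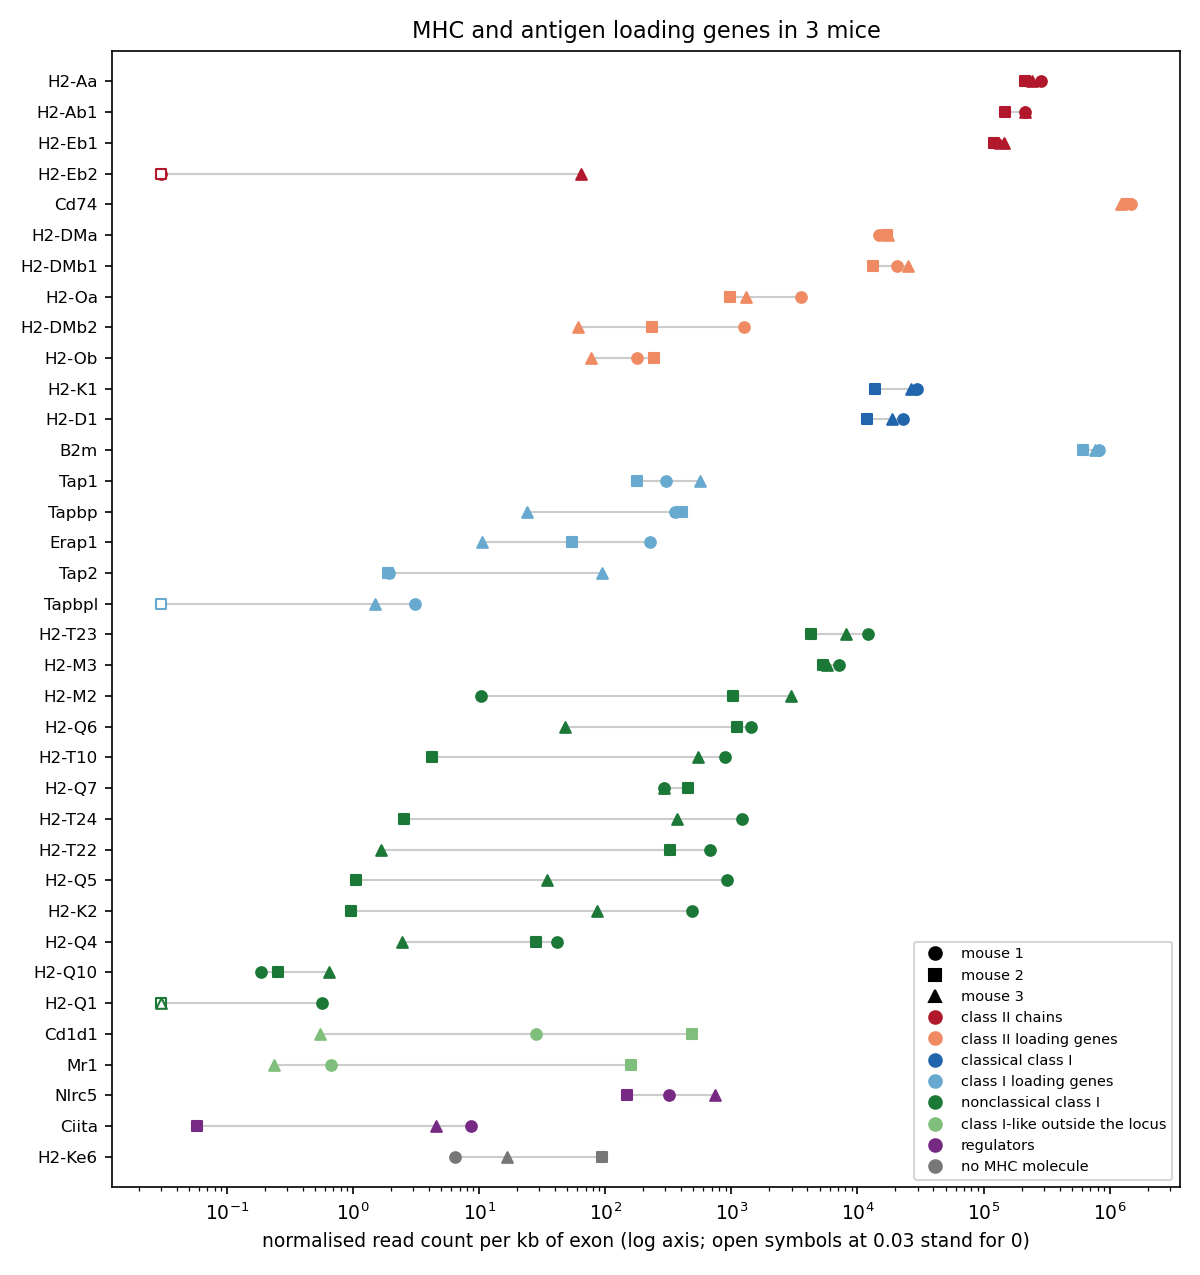
Normalised read counts per kb of exon of the 36 members on a log axis, by group and mean level, with a symbol for each of 3 mice and a line from the lowest to the highest. Open symbols stand for 0. The 3 points of H2-Aa, H2-Ab1, H2-Eb1, Cd74 and B2m each lie close together at the right, while many nonclassical class I genes spread over orders of magnitude.

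Transcripts of 3 class II chains were among the 14 most abundant per kb outside mitochondrial genes in every mouse. H2-Aa, the alpha chain of I-A, was at 1076972, 803568 and 919507 in mice 1, 2 and 3. H2-Ab1, its beta chain, was at 550570.1, 378968 and 541799, lowest in mouse 2. H2-Eb1, the beta chain of I-E, was at 244421, 235374 and 281576, close together in the 3 mice. C57BL/6 mice are known to carry a defective gene for the alpha chain of I-E, so this beta chain has no partner of its own in the strain, and H2-Ea was not analysed here. The remaining beta chain gene, H2-Eb2, was at 0 in mice 1 and 2 and at 218 in mouse 3, from 310 reads. Against the floor of 3 reads per library, mouse 3 was at least 131-fold higher than mouse 2.

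Per kb of exon, H2-Aa averaged 245747 ± 36131, H2-Ab1 190984 ± 37633 and H2-Eb1 130551 ± 12595 normalised reads. Outside mitochondrial genes, these levels per kb ranked 6, 8 and 6 for H2-Aa, 9, 12 and 8 for H2-Ab1, and 13, 14 and 12 for H2-Eb1 in mice 1, 2 and 3. The order H2-Aa, H2-Ab1, H2-Eb1 was the same in each of 3 mice. The log2 ratio per kb of H2-Aa to H2-Ab1 was 0.40, 0.52 and 0.20 in mice 1, 2 and 3 (0.37 ± 0.16), a 1.30-fold difference. That of H2-Eb1 to H2-Ab1 was -0.77, -0.29 and -0.54 (-0.53 ± 0.24), and its mean was -1.61 with the median length of coding transcripts in place of the union of exons. The ratio of summed beta chains H2-Ab1 and H2-Eb1 to H2-Aa turned with the length used. Per kb of exon it was 1.20, 1.27 and 1.47 in mice 1, 2 and 3, with the median length of coding transcripts 0.718, 0.720 and 0.858, and without length correction 0.738, 0.765 and 0.895. An exact two-sided sign-flip test of a ratio in 3 mice cannot give a p below 0.25, and 12 of the 13 ratios computed gave that value, all with the same sign in 3 of 3 mice. The remaining one is named below.

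Reads of the 4 class II chains made up 4.56%, 4.50% and 4.88% of each library in mice 1, 2 and 3 (4.65% ± 0.205). H2-Aa took 55.7% ± 2.55 of these, H2-Ab1 29.1% ± 2.20 and H2-Eb1 15.3% ± 1.93. The share of H2-Eb1 was lower in mouse 1, at 13.1%, than in mice 2 and 3, at 16.6% and 16.2%.

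Among the class II loading genes Cd74 was at 2486356, 2313805 and 2049949 in mice 1, 2 and 3, and ranked first outside mitochondrial genes in each library, both as a count and per kb. It held 96.0% ± 0.760 of the reads of its group. Within a library Cd74 exceeded H2-Ab1 per kb by 7.20-fold (log2 ratio 2.85 ± 0.35), and by 9.34-fold in mouse 2, the highest of the 3. The mean was 3.11-fold with the median length of coding transcripts and 4.71-fold without length correction. Against the summed class II chains per kb the ratio was 2.37, 2.87 and 2.04 in mice 1, 2 and 3. With the median length of coding transcripts it was 0.976, 1.22 and 0.871, so whether Cd74 exceeded the sum of its clients rests on the length used in mice 1 and 3. While H2-Aa, H2-Ab1 and B2m were lowest in mouse 2, Cd74 was lowest in mouse 3, also with each library scaled to its own total.

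The DM molecule was represented by all of its chains. H2-DMa, the alpha chain, was at 50796, 58872 and 60682 in mice 1, 2 and 3, within 1.19-fold. With each library scaled to its own total, H2-DMa differed by 1.51-fold and was highest in mouse 2. Of the 2 beta chain genes of the mouse, H2-DMb1 was at 34413, 22119 and 42014 and H2-DMb2 at 2206, 409 and 106. H2-DMb1 exceeded H2-DMb2 in each mouse, by 16.2, 56.1 and 406-fold per kb (log2 ratio 6.16 ± 2.34). The genes are close relatives: 27.2% of the 50-base stretches of the longest coding transcript of H2-DMb1 and 30.9% of those of H2-DMb2 occur in transcripts of another gene, so their separate counts are uncertain. The log2 ratio of H2-DMa to H2-DMb1 per kb was -0.47, 0.38 and -0.51 in mice 1, 2 and 3, with no common sign (mean -0.20 ± 0.50, exact sign-flip p = 0.5). Its mean turned to 0.83 without length correction and to 0.59 with the median length of coding transcripts, so neither chain can be placed above the other.

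The DO chains H2-Oa and H2-Ob, known mainly from B cells, thymic epithelium and some dendritic cells, were present at lower levels. H2-Oa was at 4984, 1380.2 and 1842 and H2-Ob at 956, 1309.8 and 412 in mice 1, 2 and 3. H2-Oa was highest in mouse 1 and H2-Ob in mouse 2. H2-Oa lay below H2-DMa per kb in 3 of 3 mice (log2 ratio -2.06, -4.12 and -3.75, mean -3.31 ± 1.10), that is 9.90-fold lower. The mean was 15.3-fold lower without mouse 1, 15.9-fold with the median length of coding transcripts and 24.3-fold without length correction. Clec9a and Xcr1 were also highest in mouse 1, whereas Cd79b was lowest there, and their part in the DO values was not tested. Of the 50-base stretches of H2-Oa 21.7% lie in a transcript annotated to an overlapping gene, BC051537.

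The classical class I heavy chains H2-K1 and H2-D1, which present peptides to CD8 T cells, were at 86302, 40759.6 and 77888 and at 59207, 30873 and 48799 in mice 1, 2 and 3. Both were lowest in mouse 2, by 2.12 and 1.92-fold against the highest, mouse 1. With each library scaled to its own total they were still lowest in mouse 2, by 1.69 and 1.47-fold, and H2-K1 was then highest in mouse 3. H2-D1 lay below H2-K1 per kb in 3 of 3 mice (log2 ratio -0.36, -0.21 and -0.49, mean -0.35 ± 0.14). With the median length of coding transcripts in place of the union of exons this ratio turned round to 0.73, so their order rests on the length used. Of their 50-base stretches 8.79% and 14.3% occur in other genes, for H2-D1 mainly H2-Q1, H2-Q7 and H2-Q6. Their reads made up 0.354%, 0.228% and 0.355% of each library in mice 1, 2 and 3, with H2-K1 at 59.2% ± 2.29 of them.

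B2m, the light chain of all these molecules, was at 710943, 525450.4 and 653279 in mice 1, 2 and 3 and ranked 3 outside mitochondrial genes in each library. It took 99.4% ± 0.0572 of the reads of the class I loading genes. Per kb it exceeded H2-K1 by 28.1, 44.0 and 28.7-fold in mice 1, 2 and 3 (log2 ratio 5.04 ± 0.37), with a mean of 10.9-fold for the median length of coding transcripts and 9.62-fold without length correction. Against the sum of the 15 class I heavy chains of the locus per kb the ratio was 10.7, 15.9 and 11.9, and without length correction 3.46, 5.33 and 3.91. H2-Ab1 also exceeded H2-K1 per kb in each mouse (log2 ratio 2.87, 3.41 and 2.99), with the widest gap in mouse 2.

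**Figure D3:**
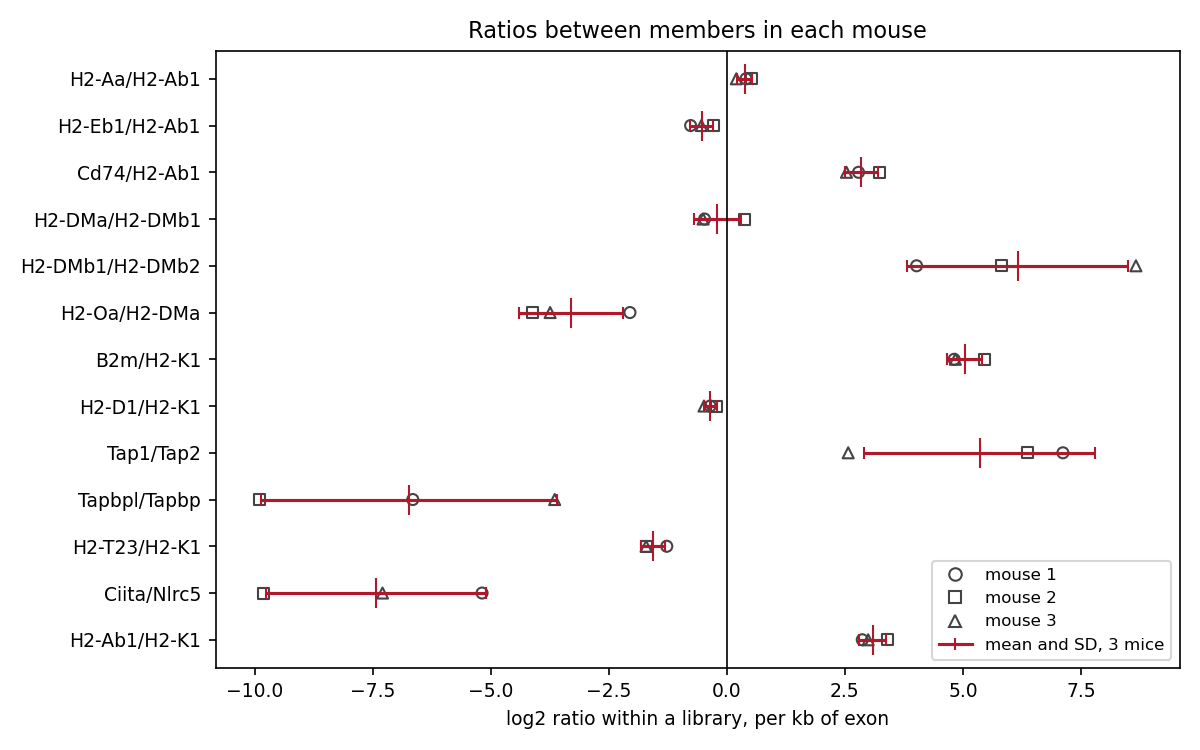
Log2 ratios between pairs of members within each library, per kb of exon, with a symbol for each of 3 mice and the mean and SD in red. Ratios among abundant genes, such as H2-Aa/H2-Ab1 (0.37 ± 0.16), vary little between mice, and those with a low gene, such as Tap1/Tap2 (5.35 ± 2.44), vary much. Values have 1 added before the log, which sets the points of libraries with 0 or 1 read.

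The other class I loading genes were far lower than B2m and uneven between mice. Tap1, a subunit of the peptide transporter, was at 1663, 981 and 3067 in mice 1, 2 and 3, while Tap2, the other subunit, was at 7.26, 7.21 and 356. Tap2 rested on 9, 13 and 505 reads, and its normalised value exceeded 10 in mouse 3 alone. The log2 ratio of Tap1 to Tap2 per kb was 7.12, 6.37 and 2.57, positive in 3 of 3 mice, with a mean of 5.35 ± 2.44. The mean was 3.10 with the median length of coding transcripts, 4.47 without mouse 1 and 6.74 without mouse 3. Tapbp, which encodes tapasin, the bridge between the transporter and class I, was at 1286, 1482 and 86.7, low in mouse 3. Erap1, which encodes the aminopeptidase that trims peptides in the endoplasmic reticulum, was at 1642, 396 and 76.8, highest in mouse 1. Tapbpl, the tapasin-related peptide editor, was at 7.26, 0 and 3.52, from 9, 0 and 5 reads. It lay below Tapbp per kb in 3 of 3 mice, with log2 ratios of -6.66 in mouse 1 and -3.65 in mouse 3. No ratio is read in mouse 2, which had 0 reads. Of the 50-base stretches of Tapbp 21.0% and of Tap2 12.6% are shared with other genes. The 6 class I loading genes together held 1.74%, 1.68% and 1.84% of the reads of mice 1, 2 and 3.

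Among the 13 nonclassical class I genes H2-T23 and H2-M3 were the highest, and the whole group held 0.146%, 0.0856% and 0.113% of the reads of mice 1, 2 and 3. H2-T23, which encodes Qa-1, a ligand of CD94/NKG2 receptors, was at 35051, 12284 and 23349 in mice 1, 2 and 3. It was 2.96-fold below H2-K1 per kb (log2 ratio -1.28, -1.71 and -1.71), and 4.53-fold below it with the median length of coding transcripts. Of the 50-base stretches of H2-T23 29.8% occur in other genes, led by H2-T-ps, so its level, share and ratio are uncertain to that extent. H2-M3, which presents N-formylated peptides of bacteria and mitochondria, was at 10295, 7604 and 8243, within 1.35-fold. These 2 genes held 53.9% ± 7.21 and 21.9% ± 5.69 of the reads of the 13 nonclassical genes. H2-T23 was lowest in mouse 2, as H2-K1, H2-D1 and B2m were.

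The Q genes, given here with H2-K2, differed widely in level, and some were high in 1 mouse and low in another. H2-Q6 was at 3003, 2308 and 101 and H2-Q7 at 1241, 1933 and 1248 in mice 1, 2 and 3, and both encode forms of Qa-2. H2-Q7 differed by 1.56-fold between mice, while H2-Q6 was low in mouse 3. H2-Q5 was at 1467, 1.66 and 55.0, H2-K2 at 827, 1.66 and 147 and H2-Q4 at 108, 72.7 and 6.34, all highest in mouse 1. H2-Q10, whose product is known as a secreted molecule of the liver, never exceeded 2.82, and H2-Q1 was at 1.61, 0 and 0. Both lay near or under the floor of 3 reads, so no order is read from them. Of the 50-base stretches of H2-Q6 35.0%, of H2-Q7 34.9% and of H2-Q4 39.2% occur in other genes, mainly other Q genes, so reads may move between them.

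The other T genes and H2-M2 differed by more than 10-fold between mice. H2-T10 was at 3016, 14.4 and 1871 in mice 1, 2 and 3 and H2-T22 at 2321, 1112 and 5.64. Both are known as ligands of some gamma delta T cell receptors. H2-T10 was low in mouse 2 and H2-T22 in mouse 3, although 42.9% and 44.7% of their 50-base stretches are shared, for the most part with each other. H2-T24 was at 2656, 5.55 and 803, and H2-M2 at 16.1, 1611 and 4632. H2-M2 was low in mouse 1 and high in mice 2 and 3, whereas H2-Q5 was highest in mouse 1. H2-T24 and H2-M2 share only 3.23% and 1.67% of their stretches with other genes, and H2-M3 shares 0.576%.

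**Figure D4:**
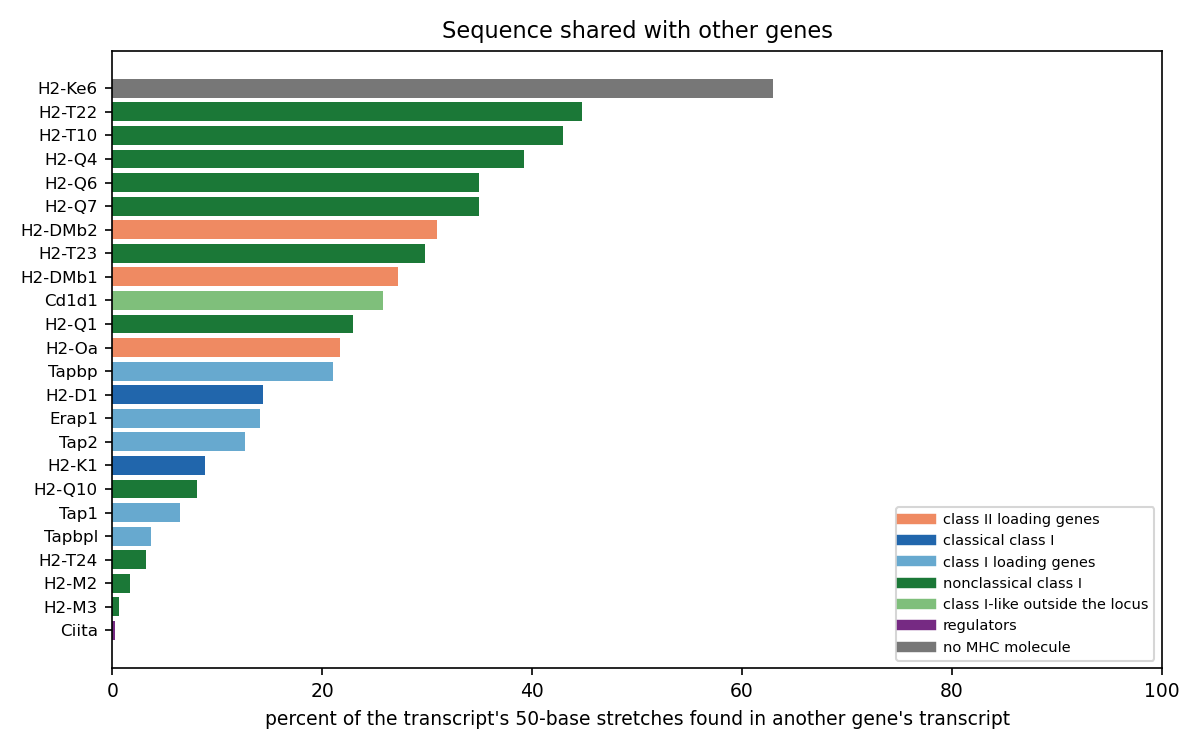
Percent of the 50-base stretches of each member's longest coding transcript that also occur, on either strand, in a transcript of another gene in GENCODE M21. Only members above 0 are drawn, from H2-Ke6 at 62.9% down to Ciita at 0.269%.

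Sequence shared with other genes was measured in the 34 members with a coding transcript. No 50-base stretch was shared in 10 of them, among which were H2-Aa, H2-Ab1, H2-Eb1, Cd74, H2-DMa and B2m. More than 10% was shared in 16, of which 7 were nonclassical class I genes. H2-Ke6 had the highest share, at 62.9%, with an overlapping gene, and its level was 10.5, 154 and 27.5 in mice 1, 2 and 3. H2-Q5 and H2-K2 have no coding transcript in the annotation. The counting rule for reads that match several genes, and the use of strand, were not stated in the labels.

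The class I-like molecules outside the locus were seen in 1 mouse above all. Cd1d1, which presents lipids to natural killer T cells, was at 72.6, 1263 and 1.41 in mice 1, 2 and 3. Mr1, which presents vitamin metabolites to mucosal-associated invariant T cells, was at 4.03, 961 and 1.41. Both were highest in mouse 2, where the sum of tubule markers was highest as well, though Umod was highest in mouse 3. The part of tubule cells in these values was not tested. Reads of Mr1 were 5, 1732 and 2 and those of Cd1d1 90, 2276 and 2. Of the stretches of Cd1d1 25.8% occur in Cd1d2.

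The regulators lay far apart. Nlrc5, the transactivator of class I genes, was at 2707, 1260.4 and 6276 in mice 1, 2 and 3. Ciita, the transactivator of class II genes, was at 82.3, 0.555 and 43.7, from 102, 1 and 62 reads. Per kb Ciita was below Nlrc5 in 3 of 3 mice, with log2 ratios of -5.19 in mouse 1 and -7.30 in mouse 3. In mouse 2, with 1 read of Ciita, H2-Aa and Cd74 were at 803568 and 2313805. With the authors' scaling, Nlrc5 was lowest in mouse 2, as H2-K1, H2-D1, B2m, H2-Aa and H2-Ab1 were. Of the 29 members with a mean of 100 or more, 17 were lowest there, against 33.1% of all genes at that level. With each library scaled to its own total, 14 were lowest in mouse 2, against 27.3% of all genes. Nlrc5 was highest in mouse 3 under both scalings, whereas H2-K1, H2-D1 and B2m were highest in mouse 1 with the authors' scaling. H2-K1 and B2m were highest in mouse 3 with each library scaled to its own total, and H2-D1 stayed highest in mouse 1. Any tie between Nlrc5 and these levels was not tested.

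The abundant members differed less between mice than the others did. Of the 29 members with a mean of 100 or more, 19 differed by 2-fold or more between the highest and the lowest mouse, against 86.3% of all genes at that level. By 10-fold or more 13 differed, against 54.9% of all genes. Among genes with a mean of 10000 or more, the 10 members had a median ratio of 1.40 and all 434 genes one of 1.92. There 2 of 10 members, H2-K1 and H2-T23, reached 2-fold, against 45.4% of all genes, and none reached 10-fold, against 2.07%. Between 1000 and 10000, 8 of 10 members reached 2-fold, against 82.1% of all genes, and 5 reached 10-fold, against 36.7%. These 5 were H2-M2, H2-Q6, H2-T10, H2-T22 and H2-T24. Between 100 and 1000, all 9 members reached 2-fold, against 94% of all genes, and 8 reached 10-fold, against 76.4%. Ratios were taken against a floor of 3 reads, and 8 members were under 100 in one mouse and at 1000 or more in another, against 15.1% of all listed genes.

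**Figure D5:**
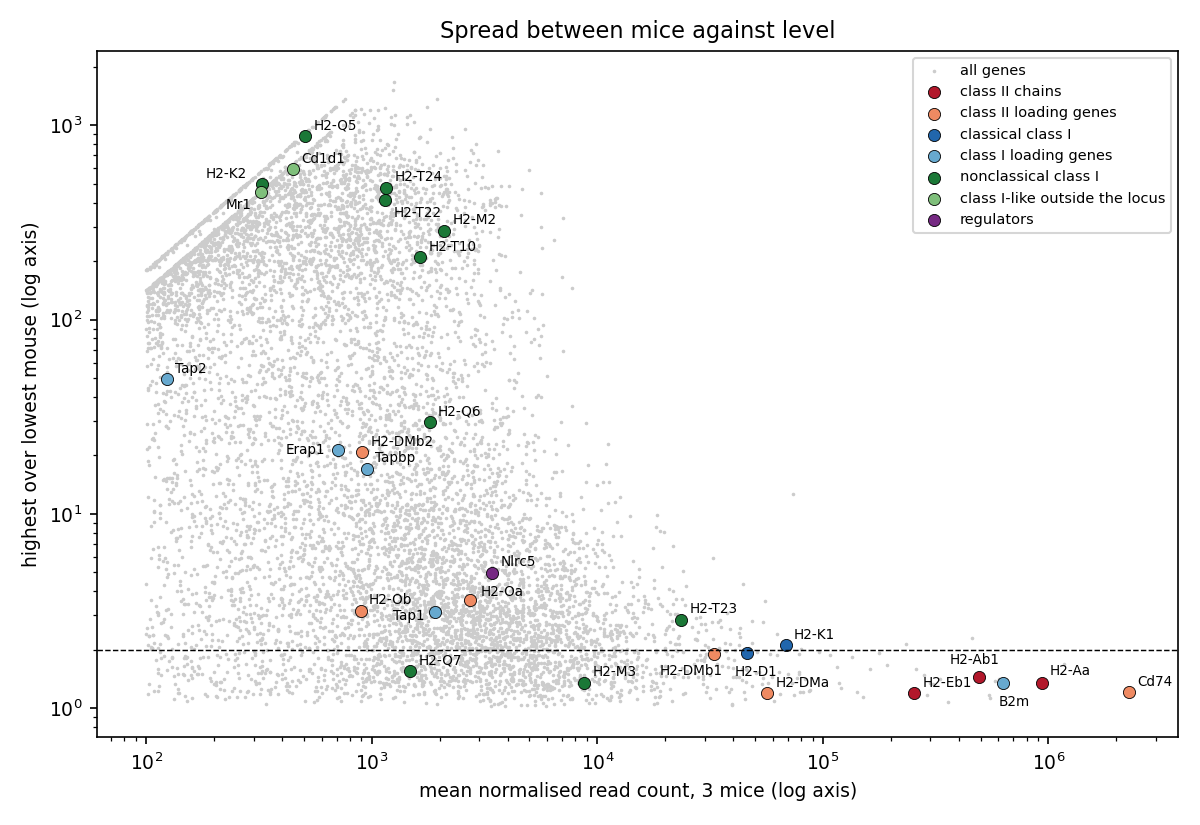
Highest over lowest mouse against the mean normalised read count of all genes with a mean of 100 or more (grey) and of the 29 members there (coloured by group), both on log axes, with values under 3 reads set to 3 reads. The dashed line is 2-fold. The 3 abundant class II chains, Cd74, B2m and H2-DMa lie at the lower right, and 5 nonclassical genes with means of 1000 to 10000 lie above 10-fold.

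The mice differed in which members were high. Of the 29 members, 17 were highest in mouse 1, 5 in mouse 2 and 7 in mouse 3, and 3, 17 and 9 were lowest in mice 1, 2 and 3. Among all genes at that level 32.3%, 33.1% and 34.6% were lowest in mice 1, 2 and 3, and 37.2%, 28.4% and 34.4% were highest. With each library scaled to its own total in place of the authors' scaling, 5, 14 and 10 members were lowest in mice 1, 2 and 3, and 12, 8 and 9 were highest. Of all genes 38.4%, 27.3% and 34.3% were then lowest, and 31.8%, 33.3% and 34.9% highest, in mice 1, 2 and 3. Mouse 2 also had the highest share of mitochondrial reads, at 14.3%, against 10.3% and 8.73% in mice 1 and 3, and the highest sum of tubule markers. The part of either in the values of the members that were lowest in that mouse was not tested. Together the members held 14.1% of the reads of mouse 2, against 13.1% and 13.2% in mice 1 and 3.

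Other genes of the pathways were broadly present. Each of 11 class I processing genes examined reached 10 in every mouse, against 44.4% of all listed genes. In every mouse 8 of them reached 1000, against 14.7% of all listed genes. The immunoproteasome subunit Psmb8 was at 21824, 13054 and 25586 in mice 1, 2 and 3, and the proteasome activator Psme1 at 14092, 9797 and 11295. The chaperones Canx and Calr, which hold folding heavy chains, were at 14333, 12421 and 11591 and at 8866, 2883 and 8911. Uggt1 and Ganab, which edit the sugars read by these chaperones, were low in mouse 1, at 13.7 and 35.5. The median of the list's means was 6887, against 254 for all listed genes.

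Each of 8 class II processing genes examined reached 10 in every mouse, against 44.4% of all listed genes. In every mouse 5 of them reached 1000, against 14.7% of all listed genes. The median of their means was 5030.2, against 254 for all listed genes. Ctss, the protease that finishes the cutting of the invariant chain, was at 350807, 237309 and 254149 in mice 1, 2 and 3. Lgmn, the asparagine endopeptidase, was at 22575, 5971 and 14746, and Ifi30, the reductase that opens disulphide bonds of antigens, at 882, 3216 and 4140.0. Sppl2a, which removes the membrane stub of the invariant chain, was at 6209, 1401 and 6457. March1, the ligase that ubiquitinates class II molecules, was at 6504, 3559 and 6052.

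Among 11 regulators examined besides Ciita and Nlrc5, 10 reached 10 in every mouse, against 44.4% of all listed genes. In every mouse 3 of the 11 reached 1000, against 14.7% of all listed genes. The median of their means was 1456, against 254 for all listed genes. The RFX subunits Rfx5, Rfxap and Rfxank averaged 1456 ± 971, 273 ± 291 and 1131 ± 1366. Of the NF-Y subunits, which bind the Y box, Nfya was at 2.42, 0.555 and 4.93 in mice 1, 2 and 3, Nfyb at 29.8, 2118 and 2419 and Nfyc at 1569, 1564 and 851. Nfya thus stayed near the floor of 3 reads in every mouse. The interferon-linked factor Irf1 was at 15142, 4897 and 2767, highest in mouse 1 and lowest in mouse 3.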

How the data were processed

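RNA of sorted kidney macrophages was amplified with SMART-seq V4 and made into Illumina libraries, per the labels' protocols, with no molecular identifiers, so reads do not count molecules. The deposited signal is a scaled read count. HTSeq 0.5.4, DESeq 1.18.0 and the build mm9 are named by the submitters' processing notes, while aligner and annotation are not given. The lowest value is 1 in each library. After 1 was subtracted, 100% of values were whole multiples of 1 step per library (tolerance 0.05), taken as 1 read.

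Ratios between genes were taken within a library on the log2(value + 1) scale, per kb of exon from GENCODE M21 matched by gene identifier (36 of 36 members, 99.6% of genes). M21 is on another build, so no coordinates from it are given. Promoters came from RefSeq (GRCm38.p6). Stretches of 50 bases of the longest coding transcript were searched in all M21 transcripts. Replicates are separate mice, per the labels, and no test between conditions was possible. Members, lists and pairs were chosen with earlier results of these data known. Each member with a mean of 1000 or more, or else the 3 highest of a group, was given in every mouse, as were Ciita, Erap1, H2-Oa, H2-Ob and H2-Eb2 by that rule. March1, listed as a date, was found by its identifier, and 20 symbols had become dates. The steps were tested on simulated data. Alternatives were pseudocount, length, scaling, thresholds and leaving out each mouse. Python 3.11.15, numpy 2.4.6 and pandas 2.3.3 were used.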

Additional observations from a re-analysis of the deposited data

How the results depend on the processing

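Of 21 results and 132 alternative values, 122 kept their direction or stayed within the limits set for them, 7 moved and 3 turned round. With reads of mitochondrial transcripts left out, the share of class II chains was 5.23%, of class II loading genes 7.50% and of class I loading genes 1.97%, all higher because the total is smaller. As shares of values per kb of exon, the same groups held 3.34%, 8.25% and 4.31%, against 4.65%, 6.64% and 1.75% of all listed reads. Both loading groups were higher, since Cd74 and B2m are short, and the class II chains were lower. Counting only the 20 members with a mean of 1000 or more, 10 differed by 2-fold or more between mice, because fewer genes are tested. Of all genes, 45.4% did so at a mean of 10000 or more and 82.1% at a mean of 1000 to 10000. The log2 ratio of H2-DMa to H2-DMb1 turned to 0.83 without length correction and to 0.59 with the median length of coding transcripts, which also turned H2-D1 to H2-K1 to 0.73. Leaving out each mouse in turn gave 23 to 27 members at 10 or more, 15 to 17 at 1000 or more and 14 to 16 with a 2-fold spread. It gave 4.53% to 4.72% of reads for class II chains. Shares of all listed genes with a mouse left out are not given here, so these counts show only how far the members' own counts moved. A filter at 10 in every mouse removed 3 of the 13 ratios: Tap1/Tap2, Tapbpl/Tapbp and Ciita/Nlrc5. Values of several other pairs under other lengths stand beside them in the text, and the lengths for summed chains were added after the data were seen. H2-Aa exceeded H2-Ab1 by 1.92-fold without length correction and by 1.74-fold with the median length of coding transcripts. In that order, H2-DMb1 exceeded H2-DMb2 by 69.0 and 70.0-fold and H2-Ab1 exceeded H2-K1 by 7.44 and 8.19-fold. Means of Tapbpl/Tapbp and Ciita/Nlrc5 are not given, since a library with 0 or 1 read enters each. Ratios of low genes rest on few reads and on the 1 that was added. No paired analysis was possible because there is 1 group.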

Other observations

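Members were put in order of their starts on chromosome 17 in the GRCm38 annotation. Neighbours are next to each other in this order of members alone, so other genes may lie between them. Some neighbours differed widely in level, and others did not. Among neighbours with closer means were H2-Ab1 at 490446 ± 96642 and H2-Aa at 933349 ± 137227, H2-Q6 at 1804 ± 1515 and H2-Q7 at 1474 ± 398, and H2-T22 at 1146 ± 1158 and H2-T10 at 1634 ± 1515. H2-DMb2, between H2-DMa and H2-DMb1, was at 907 ± 1135, against 56783 ± 5263 and 32849 ± 10039 for these neighbours. H2-Eb2 was at 72.8 ± 126 beside H2-Eb1 at 253790.4 ± 24485, and H2-K2 at 325 ± 441 beside H2-K1 at 68317 ± 24233. Tap2 was at 123 ± 201, between Tap1 at 1904 ± 1064 and H2-Ob at 892 ± 452. These are counts not divided by length, and per kb the lower gene of each of the first 3 sets stayed lower, at 519, 21.5 and 189.9 for H2-DMb2, H2-Eb2 and H2-K2, against 19541, 130551 and 23253 for H2-DMb1, H2-Eb1 and H2-K1.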
